A study of Mus musculus with 4 samples.

Results

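Hmgcs1, Idi1, Fdps, Fdft1, Sqle, Cyp51, Insig1 and Stard4 are 8 genes of sterol synthesis, sterol sensing and sterol transport that are known targets of the transcription factor SREBP2. They were taken by gene symbol, and all 8 were found among the 33696 genes of the count matrices. Their transcripts were counted in macrophages, monocytes, B cells and T cells among single cells aspirated from mouse liver. Male C57BL/6J mice were placed at 7 weeks of age on the FPC diet, a feed with added fructose, palmitate, trans-fat and cholesterol that is used to induce steatohepatitis. P-LC24 mice had eaten it with 0.05% cholesterol and P-HC24 mice with 1.25% cholesterol for 24 weeks. The same animals then ate the 0.05% cholesterol diet for 8 weeks and were sampled again at week 32, as I-LC32 and I-HC32. All groups thus shared the FPC diet, the I-LC32 mice stayed on 0.05% cholesterol throughout, and no mice on a standard diet were included.

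Each library held the non-parenchymal cells of 12 liver biopsies taken by fine needle aspiration (FNA), 4 from each of 3 mice, pooled before dissociation. There was 1 library per condition. Differences between mice could therefore not be measured, and no test between conditions was made. Intervals are exact 95% intervals and cover counting error only. UMIs of 1 cell are not independent, and the 10% of cells with the most UMIs of the 8 genes held 40.5% to 59.0% of them in each class and library, so these intervals are too narrow.

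Animal cells make cholesterol from acetyl-CoA through the mevalonate pathway, whose first steps also supply isoprenoids for other uses. When sterols are scarce in the membrane of the endoplasmic reticulum, the carrier SCAP escorts SREBP2 to the Golgi, where it is cut and released to switch on the enzymes of the pathway. When sterols are plentiful, INSIG proteins hold SCAP back, and oxysterols activate the liver X receptors, which promote sterol export.

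Between 7035 and 9828 barcodes per library had been called as cells, with 50941106 to 89257239 unique molecular identifiers (UMIs), the tags that mark single captured transcripts. Cells with at least 300 genes and at most 10% mitochondrial UMIs were kept, and 86.3% to 91.7% of them entered a class by their marker UMIs. The order P-LC24, P-HC24, I-LC32, then I-HC32 is kept wherever 4 values follow each other. The macrophages numbered 71, 530, 115 and 757. There were 141, 159, 197 and 81 monocytes, 3248 to 4975 B cells per library and 851 to 1514 T cells. Genes that the gates did not use were checked in each class. The macrophage list (Cd5l, Gata6, Alox15, Prg4, Mertk and Marco) summed to 4918 to 7067 CPM, that is UMIs per 1000000 UMIs, in the macrophages and to at most 33.6 CPM in the other classes. The monocyte list was not specific, with 6102 to 9513 CPM in monocytes and 8176 to 9268 CPM in macrophages. Clec4f, which defines Kupffer cells, the resident macrophages of the liver, was found in 2, 0, 0 and 1 of the macrophages, whereas 47.9% to 75.6% of them had a UMI of Gata6, a factor known from macrophages of the peritoneal cavity. They are therefore called macrophages and not Kupffer cells here, and whether they came from the liver or from the cavity around it was not tested. The 4 genes of a Kupffer cell list, Clec4f among them, summed to 54.4, 13.9, 46.3 and 13.8 CPM in macrophages, with Clec1b at 43.2, 3.99, 18.8 and 5.16 CPM. Any pair of libraries shared 17 to 41 barcodes, and leaving these out moved no summed level ratio of a class in Prog or Int out of its counting interval.

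All 8 genes are protein coding, and their GENCODE positions on GRCm39 hold the identifiers of the count matrices. Hmgcs1 (ENSMUSG00000093930) lies on the plus strand of chromosome 13 from 120151915 to 120170470 and Idi1 (ENSMUSG00000058258) on the same strand from 8935537 to 8942487. Cyp51 (ENSMUSG00000001467) lies on the minus strand of chromosome 5 from 4123416 to 4154751. Insig1 (ENSMUSG00000045294) lies on the plus strand of that chromosome from 28276315 to 28283668. Fdps (ENSMUSG00000059743) lies on the minus strand of chromosome 3 from 89000888 to 89019213. For Fdft1 (ENSMUSG00000021273) the position is the minus strand of chromosome 14 from 63382189 to 63417027. For Sqle (ENSMUSG00000022351) it is the plus strand of chromosome 15 from 59186869 to 59203043. The position of Stard4 is given with its values. Genes on the opposite strand overlap all 8 loci except that of Fdps, which overlaps a small nuclear RNA gene on its own strand.

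SREBP2 reads promoters close to the start of its targets, so the 250 bases before the RefSeq start are shown for the 4 of 8 members found in the promoter table, on its own build GRCm38.p6. They are Hmgcs1 (chr13:119690101-119690350, plus strand), Idi1 (chr13:8885356-8885605, plus strand), Cyp51 (chr5:4104698-4104947, minus strand) and Insig1 (chr5:28071162-28071411, plus strand). Sequences run 5′ to 3′. Capitals mark, on either strand, the sterol regulatory element TCACNCCAC, the E-box CACGTG, the NF-Y box CCAAT and the GC box GGGCGG.
Hmgcs1: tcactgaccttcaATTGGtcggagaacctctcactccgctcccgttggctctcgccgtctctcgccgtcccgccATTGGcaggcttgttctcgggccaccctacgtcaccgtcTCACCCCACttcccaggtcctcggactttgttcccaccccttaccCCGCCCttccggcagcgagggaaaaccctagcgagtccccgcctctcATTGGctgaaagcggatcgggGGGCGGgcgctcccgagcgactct
Idi1: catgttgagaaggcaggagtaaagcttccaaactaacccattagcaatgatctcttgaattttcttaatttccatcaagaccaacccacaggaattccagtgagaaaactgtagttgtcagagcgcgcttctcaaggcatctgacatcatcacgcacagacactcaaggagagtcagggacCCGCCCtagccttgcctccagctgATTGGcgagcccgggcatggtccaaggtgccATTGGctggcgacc
Cyp51: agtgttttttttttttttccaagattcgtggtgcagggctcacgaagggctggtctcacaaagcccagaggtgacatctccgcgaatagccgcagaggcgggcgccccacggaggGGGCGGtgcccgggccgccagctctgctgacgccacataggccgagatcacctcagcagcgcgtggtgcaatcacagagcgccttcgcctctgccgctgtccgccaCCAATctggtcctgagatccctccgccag
Insig1: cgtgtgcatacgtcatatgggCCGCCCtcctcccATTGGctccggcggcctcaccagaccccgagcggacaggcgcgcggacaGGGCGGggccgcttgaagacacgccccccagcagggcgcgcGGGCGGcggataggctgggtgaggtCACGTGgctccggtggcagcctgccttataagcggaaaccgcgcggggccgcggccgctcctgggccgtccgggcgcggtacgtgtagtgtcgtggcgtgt
The motifs were chosen with these sequences known, and none overlaps another in these windows. Hmgcs1 alone of the 4 held the sterol regulatory element, at positions -137 to -129 from the start, and Insig1 alone held the E-box, at positions -101 to -96. An NF-Y box was present in each of the 4 windows, with 3 in Hmgcs1, 2 in Idi1, 1 in Cyp51 and 1 in Insig1. A GC box was also present in each. Of 32851 promoters of the same length in the table, 1.05% held the sterol regulatory element, 6.02% the E-box, 33.8% the NF-Y box and 32.7% the GC box. Such a match describes letters only, and an absent match says nothing about binding.

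The summed level of the 8 genes lay between 85.7 and 117 CPM in the 4 classes at week 24 and between 88.4 and 209.8 CPM at week 32. In B cells it was 111 CPM in P-LC24, 113 CPM in P-HC24, 174 CPM in I-LC32 and 157 CPM in I-HC32. Both week 32 libraries lay above both week 24 libraries, with intervals apart. In T cells it was 96.5, 110.5, 142 and 158 CPM in the same order of libraries, again with the week 32 libraries on top. In monocytes it was 106, 117, 137 and 209.8 CPM, and I-HC32 stood apart from the other 3 libraries. In macrophages it was 106, 85.7, 126 and 88.4 CPM, so that both libraries from mice with a high-cholesterol history were lower than both others. The intervals of P-LC24 (90.4 to 123 CPM) and P-HC24 (80.6 to 91.0 CPM) touched, while those of I-LC32 (114 to 140 CPM) and I-HC32 (84.0 to 93.0 CPM) did not. The Kupffer cell list divided the libraries in the same way, higher in P-LC24 and I-LC32 macrophages, and its part in the difference was not tested. Barcodes dominated by haemoglobin, taken as a measure of free RNA, held 68.8, 30.9, 28.8 and 14.4 CPM of the 8 genes, on 33 UMIs or fewer. At least 50% of the UMIs of these barcodes were haemoglobin and were counted in the denominator. Their CPM values are lowered by this and cannot be set directly against those of the classes.

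**Figure D1:**
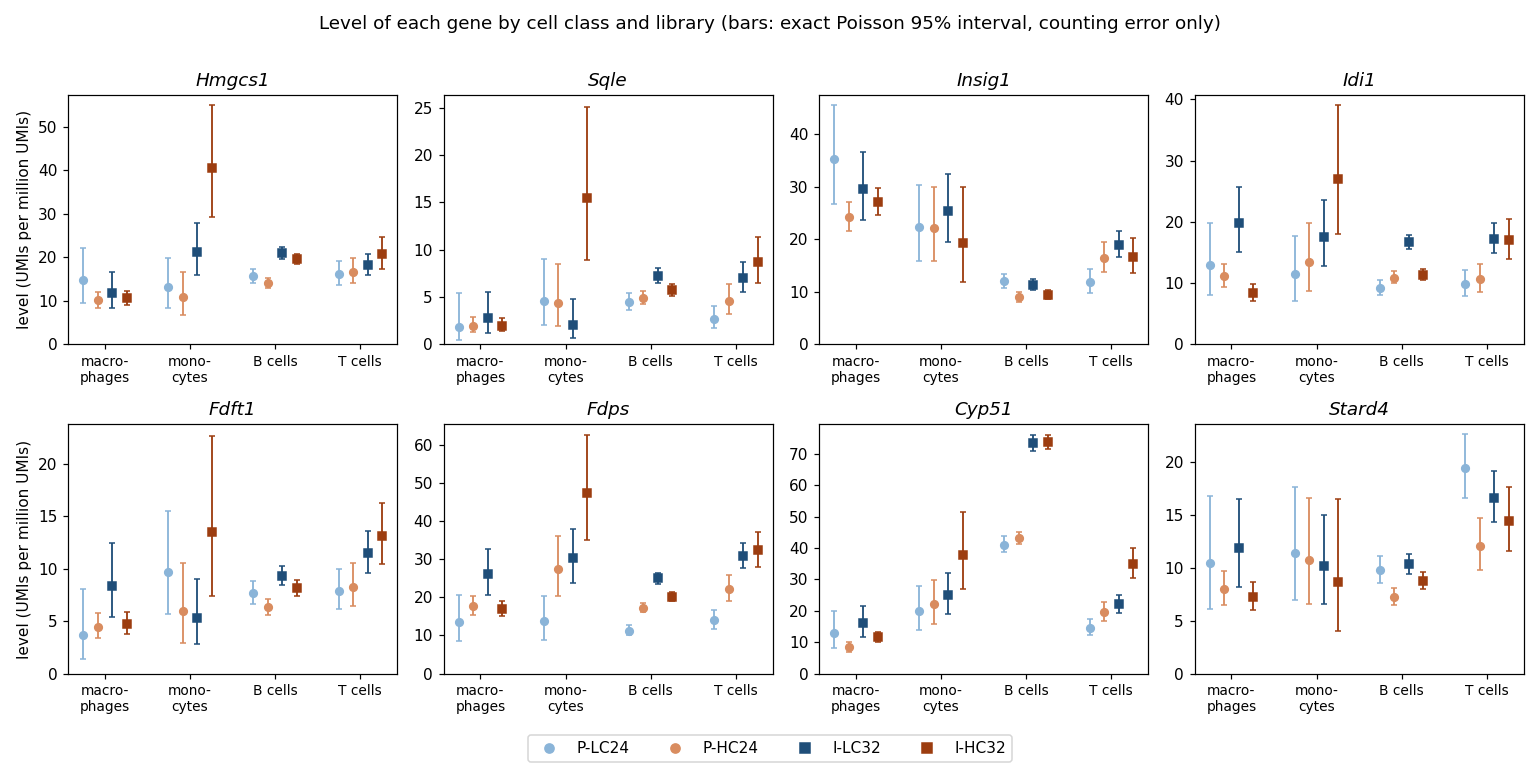
Level of each of the 8 genes (vertical axis, UMIs per 1000000 UMIs, linear from 0) in 4 cell classes (horizontal axis), with 1 point per library and bars for the exact Poisson 95% interval. Cyp51 was highest in B cells in all 4 libraries, Insig1 was highest in macrophages, and I-HC32 monocytes stood above the other monocytes for Hmgcs1.

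Hmgcs1 encodes the synthase that makes HMG-CoA, an early intermediate of the pathway. Its level in B cells was 15.7 CPM in P-LC24, 14.1 CPM in P-HC24, 20.9 CPM in I-LC32 and 19.6 CPM in I-HC32, and in T cells 16.1, 16.7, 18.2 and 20.7 CPM. In macrophages it was 14.8, 10.1, 11.8 and 10.5 CPM, all within overlapping intervals. Monocytes had 13.1, 10.8, 21.2 and 40.6 CPM, and in I-HC32 alone did the highest class, monocytes with 29.3 to 54.9 CPM, stand apart from the next. The ranking of the classes for Hmgcs1 differed from library to library. In P-LC24, P-HC24 and I-LC32, however, all neighbouring classes in it overlapped in their intervals.

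Idi1, the isomerase that interconverts the pathway's isoprene building blocks, had 12.97, 11.1, 19.9 and 8.33 CPM in macrophages. The I-LC32 macrophages were the highest and the I-HC32 macrophages the lowest, and these intervals did not overlap. B cells had 9.15, 10.9, 16.7 and 11.3 CPM, with I-LC32 apart from the other 3 libraries. T cells had 9.86, 10.6, 17.2 and 17.0 CPM, so that in this class both week 32 libraries were high. In monocytes Idi1 ranged from 11.4 to 27.1 CPM on 20 to 43 UMIs.

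Fdps makes farnesyl pyrophosphate, the branch point between sterols and the lipids that anchor small GTPases. In B cells its level was 11.3 CPM in P-LC24, 17.3 CPM in P-HC24, 25.0 CPM in I-LC32 and 20.2 CPM in I-HC32, with all 4 intervals apart. T cells had 14.03, 22.2, 30.9 and 32.3 CPM, monocytes 13.7, 27.4, 30.2 and 47.4 CPM, and macrophages 13.6, 17.7, 26.1 and 17.0 CPM. In every class the P-LC24 library was the lowest, and in no library did the highest class stand apart from the next.

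Fdft1, squalene synthase, commits farnesyl pyrophosphate to sterols, and Sqle, squalene epoxidase, catalyses the next step. Fdft1 had 7.65, 6.35, 9.34 and 8.16 CPM in B cells and 7.88, 8.28, 11.5 and 13.1 CPM in T cells. In macrophages it had 3.71, 4.47, 8.36 and 4.75 CPM and in monocytes 9.70, 5.92, 5.30 and 13.5 CPM, on 6 to 24 UMIs in all of these but P-HC24 and I-HC32 macrophages. Sqle was the member with the fewest UMIs in macrophages, B cells and T cells. It had 4.45, 4.87, 7.23 and 5.71 CPM in B cells and 2.67, 4.57, 6.96 and 8.64 CPM in T cells. The values in T cells were highest in the week 32 libraries, and the interval of P-LC24 (1.69 to 4.00 CPM) lay below both. In macrophages Sqle had 1.85 to 2.79 CPM on 3 to 33 UMIs.

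Cyp51, lanosterol demethylase, acts after the sterol ring has been closed. It was highest in B cells in all 4 libraries, with 41.1, 43.1, 73.4 and 73.6 CPM. The next class was monocytes in each library, with 19.98, 22.1, 24.9 and 37.7 CPM, and the B cell interval was apart from it in each. T cells had 14.6, 19.5, 22.0 and 34.9 CPM. Macrophages had the lowest levels, with 12.97, 8.30, 16.03 and 11.5 CPM, apart from the class above in P-HC24 and I-HC32. Of the UMIs of the 8 genes, Cyp51 made up 37.0% to 47.0% in B cells and 9.68% to 22.1% in the other classes.

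Insig1, the endoplasmic reticulum protein that retains SCAP and is itself an SREBP target, had another order. Macrophages were highest in all 4 libraries, with 35.2, 24.2, 29.6 and 27.1 CPM. Monocytes followed with 22.3, 22.1, 25.3 and 19.3 CPM, and their intervals overlapped those of macrophages throughout. T cells had 11.8, 16.4, 19.0 and 16.6 CPM and B cells 11.98, 8.91, 11.3 and 9.43 CPM. B cells were lowest, apart from T cells, in all libraries but P-LC24.

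Stard4 (ENSMUSG00000024378), on the minus strand of chromosome 18 from 33332197 to 33346942, carries cholesterol between membranes in the cytosol. T cells had the highest level in every library, 19.5 CPM in P-LC24, 12.1 CPM in P-HC24, 16.6 CPM in I-LC32 and 14.4 CPM in I-HC32. Only in I-HC32 was this apart from the class ranked next, B cells with 8.79 CPM. The other classes lay between 7.28 and 11.8 CPM in all libraries.

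Across the 16 levels given by 4 classes and 4 libraries, the members did not all vary alike. On log2(CPM + 1) values, the correlation of a member with the mean of the other 7 was 0.73 for Hmgcs1, 0.75 for Sqle, 0.78 for Idi1, 0.76 for Fdft1 and 0.73 for Fdps. It was 0.32 for Cyp51, 0.16 for Stard4 and -0.30 for Insig1. The points share libraries and differ in depth, so these are descriptions only. Genes outside the members were ranked from 9981 genes searched, a count that includes members. The patterns most like the mean of the members were those of Man1b1 (r = 0.87), Cdc123 (0.86), Gtf2f1 (0.85), Slc25a38 (0.84) and Utp14a (0.83).

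During the Progression phase (Prog, P-HC24 over P-LC24) the summed level was lower in macrophages of the high-cholesterol library and higher in its T cells. The log2 ratio of the summed level was -0.30 (-0.54 to -0.06) in macrophages, 0.14 (-0.15 to 0.43) in monocytes, 0.02 (-0.05 to 0.09) in B cells and 0.20 (0.06 to 0.33) in T cells. The median log2 ratio of all genes compared was itself below 0, at -0.21, -0.12, -0.20 and -0.23 in the same order of classes. The interval of the macrophage sum held this median, while that of the T cell sum lay above it. In macrophages the median over the 8 members was -0.31 and in T cells 0.26.

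**Figure D2:**
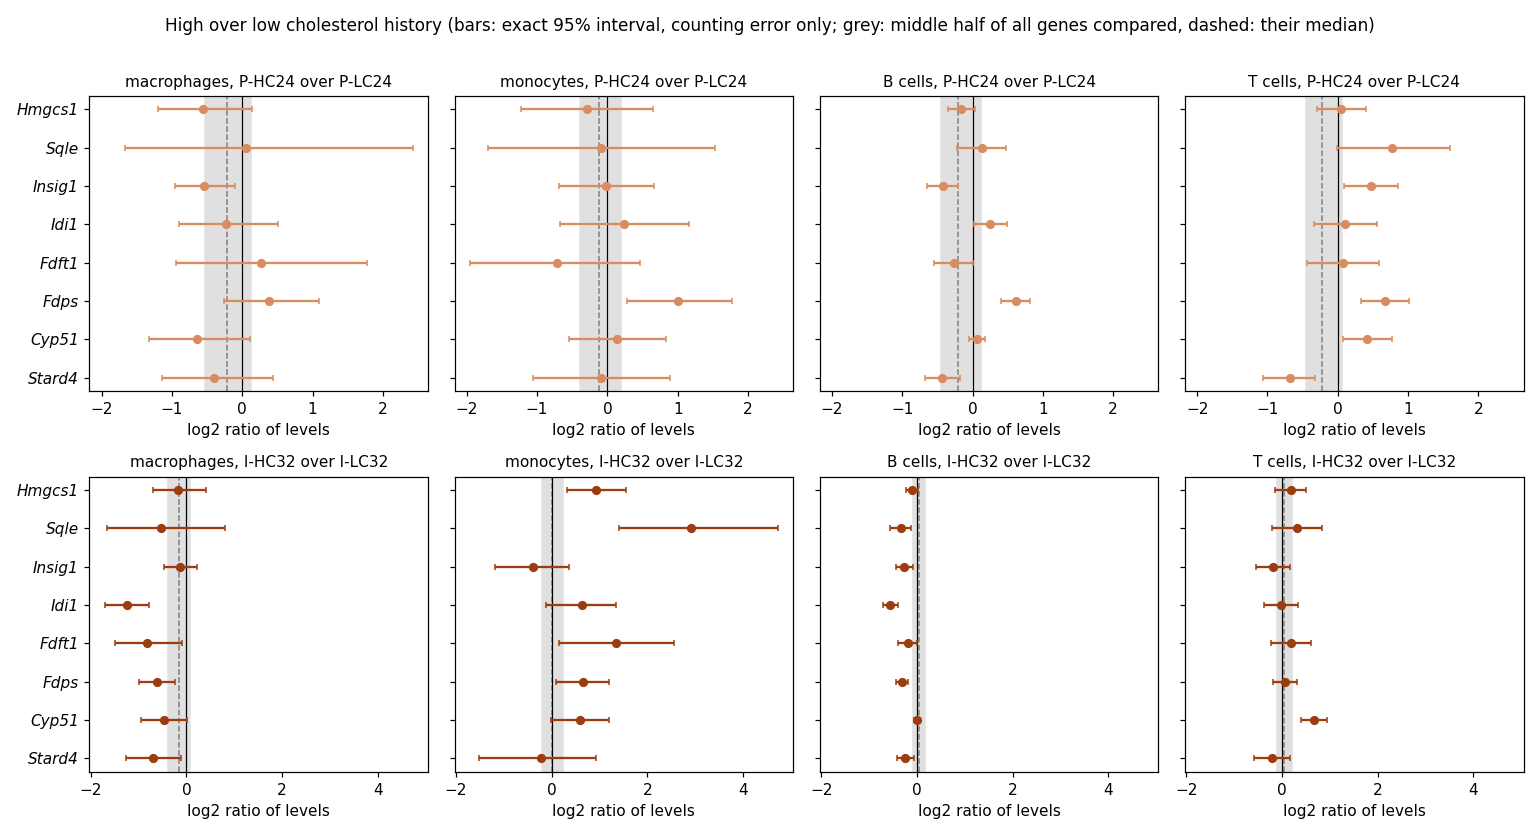
Log2 ratio of each gene's level between libraries (horizontal axis) for Prog (upper row) and Int (lower row) in 4 cell classes, with bars for the exact 95% interval of counting error, a grey band between the quartiles of all genes compared and a dashed line for their median. All 8 values lay below 0 in macrophages in Int, with intervals that held 0 for Hmgcs1, Insig1, Sqle and Cyp51, while 6 of 8 lay above 0 in monocytes, with wide intervals.

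Counts of members past 1.2-fold in Prog are read against all genes compared, which had at least 100 UMIs in the pair of libraries and were detected in 10% or more of cells in one of them. In macrophages 2 of 8 members were higher and 4 lower, where 17.5% of 8195 genes were higher and 45.3% lower. The lower count was thus near the share of all genes. In T cells 4 members were higher and 1 lower, against 11.7% and 46.4% of 6830 genes. In B cells 1 member was higher and 3 were lower, against 15.1% and 44.3% of 6740 genes. Monocytes had 1 higher and 2 lower, against 20.5% and 35.6% of 4969 genes. The members that passed the filter themselves numbered 6 in macrophages, 0 in monocytes, 2 in B cells and 5 in T cells. Their median log2 ratio was -0.47 in macrophages, 0.34 in B cells and 0.42 in T cells.

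Fdps was above 0 in all 4 classes in Prog and Stard4 below 0 in all 4. Its log2 ratio was 0.38 (-0.25 to 1.09) in macrophages, 1.003 (0.28 to 1.77) in monocytes, 0.61 (0.41 to 0.82) in B cells and 0.67 (0.32 to 1.01) in T cells. The interval left out 0 in all classes but macrophages. Stard4 had -0.43 (-0.68 to -0.18) in B cells and -0.69 (-1.06 to -0.32) in T cells, while -0.40 (-1.15 to 0.44) in macrophages and -0.08 (-1.05 to 0.88) in monocytes had intervals that held 0. Insig1 differed in sign between classes, with log2 ratios of -0.54 (-0.96 to -0.11) in macrophages, -0.43 (-0.65 to -0.20) in B cells and 0.47 (0.09 to 0.86) in T cells. Cyp51 had 0.42 (0.07 to 0.77) in T cells, and -0.062 with CD4 and CD8 cells weighted equally. In B cells it had 0.07 (-0.04 to 0.18).

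After the Intervention phase (Int, I-HC32 over I-LC32), when both groups were eating 0.05% cholesterol, macrophages of mice with a high-cholesterol history had the lower summed level. The log2 ratio of the summed level was -0.52 (-0.68 to -0.35) in macrophages, 0.62 (0.37 to 0.87) in monocytes, -0.15 (-0.20 to -0.11) in B cells and 0.15 (0.03 to 0.26) in T cells. The median of all genes compared was -0.16, 0.01, 0.03 and 0.05, and the median over the 8 members -0.57, 0.64, -0.25 and 0.13. Over the members that passed the filter of all genes it was -0.62, 0.63, -0.20 and 0.02. The Prog and Int comparisons used the same mice 8 weeks apart, so they are not independent of each other.

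In macrophages in Int 0 of 8 members were at least 1.2-fold higher and 6 lower, where 12.8% of 9223 genes were higher and 37% lower. Idi1 had a log2 ratio of -1.25 (-1.71 to -0.78), Fdft1 of -0.81 (-1.49 to -0.09), Stard4 of -0.70 (-1.26 to -0.11) and Fdps of -0.62 (-0.99 to -0.23). Insig1 with -0.13 (-0.46 to 0.22) and Hmgcs1 with -0.17 (-0.71 to 0.40) lay near the median of all genes. For Cyp51 the log2 ratio was -0.48 (-0.95 to 0.02), and 0.17 among cells with Gata6. For Sqle it was -0.53 (-1.67 to 0.80), and 0.78 without cycling cells, so the shared direction did not hold for these 2 genes in each alternative. In this class 7 of 8 members passed the filter.

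In monocytes 6 members were higher and 1 lower, against 22.4% and 19.3% of 4947 genes. Hmgcs1 had a log2 ratio of 0.94 (0.31 to 1.55), Fdps of 0.65 (0.10 to 1.19) and Fdft1 of 1.35 (0.15 to 2.56). For Sqle the log2 ratio was 2.92 (1.41 to 4.73), on 16 UMIs in I-HC32 and 5 in I-LC32. Only 2 of the 8 members passed the filter in this class. In I-HC32 the 8 monocytes with the most UMIs of these genes held 59.0% of them, and 1 of the 81 monocytes held 32 UMIs. Without the top cell of each library the log2 ratio of the sum was 0.53. The 6 cell cycle genes summed to 19.98, 36.6, 53.4 and 133 CPM in monocytes, in the same order of libraries as the 8 genes. Cells with at least 2 of their UMIs numbered 7, 5, 10 and 2, and without them the log2 ratio of the sum was 0.67 in Int and -0.05 in Prog.

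In B cells 0 members were higher and 4 lower in Int, against 12.3% and 7.44% of 7636 genes. Idi1 had a log2 ratio of -0.56 (-0.71 to -0.40), Sqle of -0.34 (-0.56 to -0.12), Fdps of -0.31 (-0.43 to -0.19) and Insig1 of -0.26 (-0.44 to -0.09). Cyp51 did not share this, with 0.00 (-0.06 to 0.07). Only 4 members passed the filter in B cells, and 2 of these were lower. With the filter set at 20 UMIs instead, 18.4% of all genes were higher and 20.7% lower. In T cells 2 members were higher and 0 lower, against 18.2% and 9.8% of 6746 genes, and Cyp51 had the log2 ratio farthest from 0, 0.67 (0.40 to 0.93), with Fdps at 0.07 (-0.19 to 0.32).

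Fdps and Idi1 in B cells were thus higher in the high-cholesterol library in Prog and lower in Int, with intervals that left out 0 in each case. Fdps had a log2 ratio of 0.61 in Prog and -0.31 in Int, and that of Idi1 was 0.25 (0.02 to 0.49) and -0.56. For each of the 2 genes P-LC24 had the lowest and I-LC32 the highest level of the 4 libraries. The median mitochondrial share of B cells was 4.08%, 5.45%, 5.25% and 4.46%. With a limit of 5% the log2 ratio of the B cell sum was 0.28 in Prog and -0.29 in Int, and as the mean of each cell's CPM it was 0.094 and -0.00208.

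The B cell sum covered subsets that went in opposite directions. B-1 type cells, taken by UMIs of Bhlhe41 or Zbtb32, known from innate-like B-1 cells, and no UMI of Fcer2a or Cr2, had 113, 86.4, 151 and 134 CPM of the 8 genes. Follicular type cells, taken by UMIs of Fcer2a or Cr2 without the former, had 109.7, 134, 193 and 219.6 CPM. The high-cholesterol library was lower in B-1 type cells and higher in follicular type cells, in Prog and Int alike. The log2 ratio of the sum was -0.38 (-0.51 to -0.26) in Prog and -0.16 (-0.23 to -0.10) in Int in B-1 type cells. In follicular type cells it was 0.28 (0.17 to 0.39) in Prog and 0.18 (0.10 to 0.27) in Int. The subsets made up different shares of the libraries. B-1 type cells were 15.0%, 29.6%, 30.1% and 40.3% of B cells, and follicular type cells 62.6%, 36.3%, 38.3% and 24.6%. B cells in neither subset, 22.4%, 34.1%, 31.6% and 35.1%, had log2 ratios of the sum of 0.26 (0.12 to 0.39) in Prog and -0.23 (-0.31 to -0.16) in Int.

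Cyp51 was split in the same way. Its level in B-1 type cells was 59.7 CPM in P-LC24, 38.5 CPM in P-HC24, 79.2 CPM in I-LC32 and 67.7 CPM in I-HC32. In follicular type cells it was 31.3, 40.0, 59.4 and 82.7 CPM. Cyp51 was thus higher in B-1 type than in follicular type cells in both low-cholesterol libraries, while in I-HC32 the order was turned round, with intervals apart. For Cyp51 the log2 ratio was -0.63 (-0.81 to -0.45) in Prog and -0.23 (-0.32 to -0.13) in Int in B-1 type cells, and 0.35 (0.15 to 0.56) and 0.48 (0.32 to 0.63) in follicular type cells. Fdps in Prog was positive in both subsets, with 0.43 (0.01 to 0.86) in B-1 type and 0.90 (0.59 to 1.21) in follicular type cells.

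**Figure D3:**
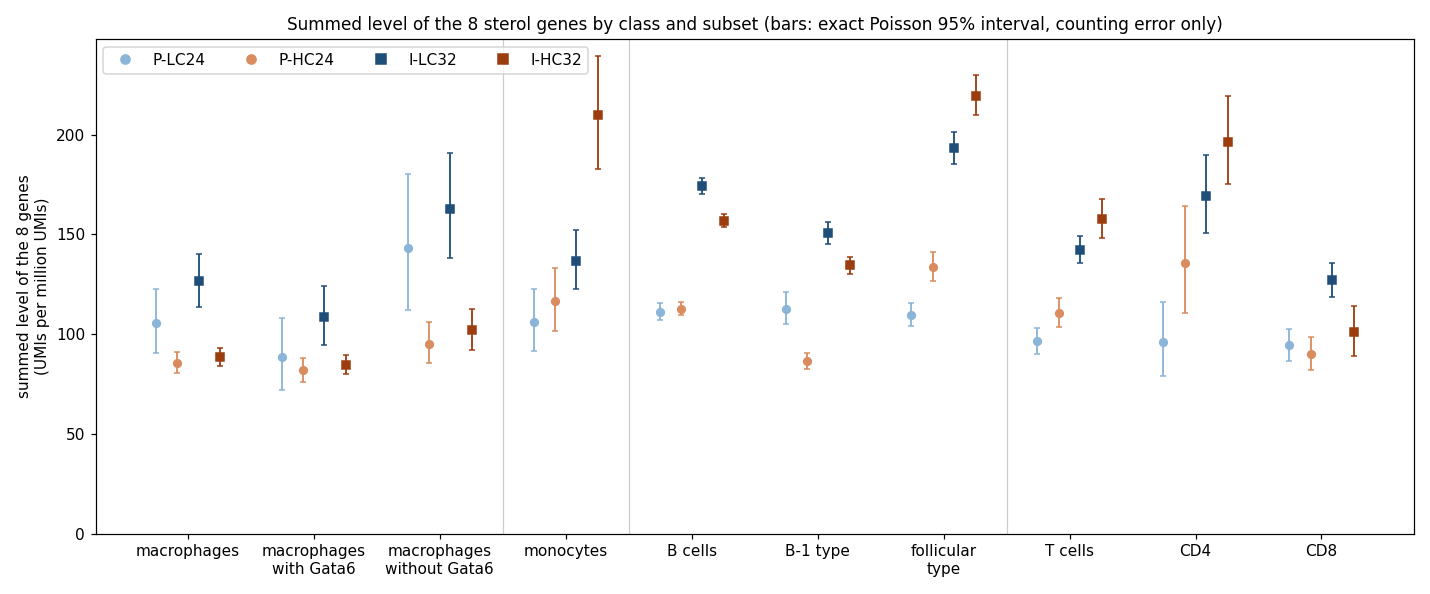
Summed level of the 8 genes (vertical axis, UMIs per 1000000 UMIs, linear from 0) in each class and subset (horizontal axis), with 1 point per library and bars for the exact Poisson 95% interval. B-1 type cells were lower and follicular type cells higher in the libraries with a high-cholesterol history at both times.

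T cells divided along CD4 and CD8. CD4 cells had 96.2, 135, 169 and 196 CPM of the 8 genes, with a log2 ratio of the sum of 0.49 (0.09 to 0.89) in Prog and 0.21 (-0.02 to 0.45) in Int. CD8 cells had 94.4, 90.1, 127 and 101 CPM, with -0.07 (-0.25 to 0.11) in Prog and -0.33 (-0.54 to -0.13) in Int. The share of CD4 cells among T cells was 15.5%, 11.2%, 17.6% and 27.1%, and that of CD8 cells 64.7%, 59.9%, 53.6% and 38.0%. T cells in neither subset, with UMIs of none or of both, were 19.9%, 28.9%, 28.9% and 34.9% and had 104, 155, 163 and 199 CPM. Their log2 ratio was 0.57 (0.30 to 0.85) in Prog and 0.29 (0.09 to 0.48) in Int. The higher T cell sum of the high-cholesterol libraries was thus not present in CD8 cells. Without the cells in neither subset the log2 ratio of the T cell sum was 0.017 in Prog and 0.023 in Int, and with CD4 and CD8 cells weighted equally it was 0.0049 in Int. Stard4 in CD8 cells had a log2 ratio of -0.77 (-1.25 to -0.31) in Prog, in the direction of the whole class.

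Macrophages with a UMI of Gata6 had a lower sum than those without, in all 4 libraries. With Gata6 the sum was 88.7, 81.8, 109 and 84.7 CPM, and without it 143, 95.3, 163 and 102 CPM. In Int the log2 ratio of the sum was -0.36 (-0.57 to -0.14) with Gata6 and -0.68 (-0.95 to -0.40) without, so both kinds shared the direction. In Prog it was -0.12 (-0.42 to 0.20) with Gata6 and -0.59 (-0.96 to -0.20) without, the former within counting error. Gata6-positive cells were 47.9%, 66.4%, 54.8% and 75.6% of macrophages, so their share was larger in the libraries with a high-cholesterol history. Cycling cells, with at least 2 UMIs of 6 cell cycle genes, were 23.9%, 10.4%, 19.1% and 12.8% of the macrophages. Without them the log2 ratio of the sum was -0.31 in Prog and -0.59 in Int.

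Between week 24 and week 32 the summed level was higher in lymphocytes of both diet histories. The log2 ratio of the summed level, I-LC32 over P-LC24, was 0.65 (0.59 to 0.71) in B cells and 0.56 (0.44 to 0.68) in T cells, where the medians of all genes were -0.01 and 0.05. For I-HC32 over P-HC24 it was 0.48 (0.43 to 0.53) in B cells and 0.51 (0.38 to 0.65) in T cells, where the medians of all genes were themselves 0.21 and 0.31. The median over the 8 members was 0.56 in B cells and 0.64 in T cells of the low-cholesterol mice, and 0.25 and 0.60 in those with a high-cholesterol history. The medians of all genes cover only genes that passed the filter. Over the members that passed it the median was 0.85, 0.64, 0.48 and 0.42 in the same order. In B cells of mice with a high-cholesterol history the median over all 8 members was thus near that of all genes, and Cyp51 lay above it. In T cells of these mice the median over the members that passed, 0.42, lay within the quartiles of all genes, 0.10 to 0.52. CD8 cells, which had lower sums than CD4 cells, were 59.9% of T cells in P-HC24 and 38.0% in I-HC32. The part of this shift in the T cell rise was not tested. In B cells of the low-cholesterol mice 6 of 8 members were at least 1.2-fold higher and 0 lower, against 19.9% and 19.6% of all genes. In their T cells 6 were higher and 0 lower, against 24.3% and 13.8%. For the mice with a high-cholesterol history the counts were 4 higher and 0 lower in B cells, against 40.6% and 4.52%, and 6 higher and 0 lower in T cells, against 57.1% and 5.43%. In the low-cholesterol mice Fdps had a log2 ratio of 1.15 (0.96 to 1.34) in B cells and 1.14 (0.84 to 1.45) in T cells. Sqle had 0.70 (0.38 to 1.03) and 1.38 (0.70 to 2.12) in the same cells. Of the members 4 and 6 passed the filter in B and T cells of low-cholesterol mice and 3 and 4 in the others. Cyp51 had 0.84 (0.73 to 0.94) in B cells of these mice and 0.77 (0.69 to 0.85) in B cells of mice with a high-cholesterol history.

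Monocytes were also higher at week 32, with a log2 ratio of the sum of 0.36 (0.10 to 0.63) in low-cholesterol mice and 0.85 (0.57 to 1.12) in those with a high-cholesterol history. Here 4 members were at least 1.2-fold higher and 2 lower in the former, against 23.3% and 31.1% of all genes, and 6 higher and 1 lower in the latter, against 26.7% and 17.8%. Only 1 member passed the filter in each of these comparisons, so the counts rest mostly on genes below it. In macrophages the log2 ratio of the sum was 0.26 (-0.01 to 0.53) in low-cholesterol mice, where Fdps had 0.94 (0.24 to 1.70), and 0.05 (-0.07 to 0.16) in the others. In macrophages 5 members were higher and 1 lower in low-cholesterol mice, against 24.3% and 22.9%, where 1 of 8 members passed the filter. There was 1 higher and 1 lower in the other mice, against 27.6% and 8.91%, where 6 passed. The low-cholesterol mice kept their diet between the times, and week, age and library cannot be told apart in them. In mice with a high-cholesterol history the switch of diet cannot be told apart from these either.

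The share of cells with a UMI of any of the 8 genes was highest in macrophages, the deepest class. It was 68.9% to 71.8% in macrophages, whose median depth was 21193 to 23874 UMIs, and 42.6% to 63.3% in B cells, whose median depth was 5890 to 8982 UMIs. In T cells it was 47.5%, 49.9%, 51.6% and 52.2%, while the median depth was 8355, 7607, 6895.5 and 6502 UMIs, so that share and depth ran in opposite orders. Monocytes had 52.5%, 54.1%, 61.4% and 56.8% at 11156 to 12376 UMIs. With every cell thinned to 2000 UMIs, and 0 to 43 shallower cells per class and library left out, the share in B cells was 16.5%, 18.8%, 23.5% and 24.5%. In T cells it was 18.2%, 19.0%, 22.4% and 26.3%, and in monocytes 15.6%, 18.2%, 19.4% and 23.5%. Macrophages had 20.9%, 12.6%, 15.7% and 15.1%. The week 32 libraries had the larger shares in both lymphocyte classes, and their intervals were apart from those of week 24 in B cells. In B cells the shares of I-LC32 and I-HC32 overlapped in their intervals, while the summed level was lower in I-HC32.

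**Figure D4:**
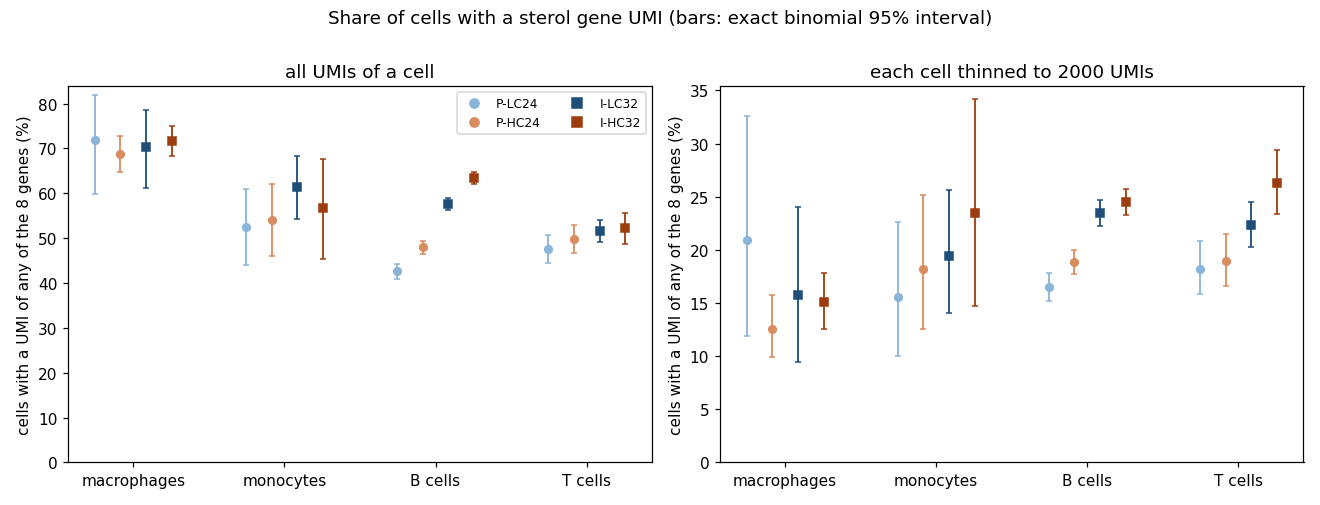
Share of cells with at least 1 UMI of the 8 genes (vertical axis, percent, linear from 0) by class and library, with all UMIs (left) and with each cell thinned to 2000 UMIs (right), and bars for the exact binomial 95% interval. Thinned B cells went from 16.5% in P-LC24 to 24.5% in I-HC32.

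The 14 other enzymes of the pathway were examined from a list. In macrophages 1 was at least 1.2-fold higher and 6 lower in Prog, against 17.5% and 45.3% of all genes, and 2 were higher and 6 lower in Int, against 12.8% and 37%. The lower counts were thus near the share of all genes. In monocytes 7 were higher and 2 lower in Prog and 10 higher and 1 lower in Int, most of them on few UMIs, since 2 and 3 passed the filter. All genes gave 20.5% and 35.6% in Prog and 22.4% and 19.3% in Int there. In B cells the counts were 3 and 4 in Prog, against 15.1% and 44.3%, and 0 and 4 in Int, against 12.3% and 7.44%. In Int only 5 of the 14 passed the filter in B cells, and 1 of these was lower. T cells had 4 and 5 in Prog, against 11.7% and 46.4%, and 4 and 2 in Int, against 18.2% and 9.8%. These shares of all genes apply to the lists that follow as well, whose counts also take genes below the filter. Ebp, the sterol isomerase, held the most UMIs of the list in each class. Its level in B cells was 31.1 CPM in P-LC24, 43.0 CPM in P-HC24, 45.6 CPM in I-LC32 and 51.6 CPM in I-HC32, with a log2 ratio of 0.47 (0.34 to 0.59) in Prog and 0.18 (0.10 to 0.26) in Int. Pmvk, which phosphorylates mevalonate phosphate, had -0.46 (-0.58 to -0.34) in B cells in Int, and Sc5d, a late desaturase, 0.48 (0.15 to 0.80) in T cells in Int.

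Among 11 genes that control SREBP processing, 7 were at least 1.2-fold lower and 0 higher in macrophages in Prog, and 9 lower and 1 higher in Int, where 45.3% and 37% of all genes were lower. In B cells 6 were lower and 0 higher in Prog, and 0 lower and 2 higher in Int. T cells had 6 lower and 0 higher in Prog and 2 lower and 3 higher in Int, and monocytes 6 lower and 4 higher in Prog and 3 lower and 4 higher in Int. The 6 of 11 lower in Prog in B and T cells lay near the 44.3% and 46.4% of all genes. Srebf2, which encodes SREBP2 itself, had 87.9 CPM in P-LC24, 73.3 CPM in P-HC24, 99.5 CPM in I-LC32 and 86.8 CPM in I-HC32 B cells. The log2 ratio was -0.26 (-0.34 to -0.18) in Prog and -0.20 (-0.26 to -0.14) in Int, lower in the high-cholesterol library each time. The median of all genes in B cells was -0.20 in Prog, within the interval of Srebf2, and 0.03 in Int. Rnf145, a ubiquitin ligase that acts on the pathway, had -0.67 (-0.76 to -0.58) in B cells in Prog and -0.91 (-1.29 to -0.52) in macrophages in Int. Mbtps2, a Golgi protease that helps to free SREBP, had -1.12 (-1.70 to -0.51) in macrophages in Prog and 0.32 (0.04 to 0.60) in T cells in Int.

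Of 13 genes of sterol uptake and intracellular transport, 2 were higher and 6 lower in macrophages in Prog, and 0 higher and 7 lower in Int. The first of these lower counts was at the share of all genes, 45.3%, and the other stood against 37%. The counts of higher and lower genes were 2 and 5, then 1 and 4 in monocytes, 1 and 6, then 0 and 2 in B cells, and 1 and 8, then 1 and 4 in T cells, for Prog and then Int, where 46.4% and 9.8% of all genes were lower in T cells. Npc2, which hands on cholesterol in lysosomes, had 0.68 (0.61 to 0.75) in B cells in Prog. Gramd1b, a carrier from the plasma membrane, had -0.68 (-0.82 to -0.54) in T cells in Int.

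Of the 10 genes of sterol export, esterification and liver X receptor signaling, 0 were higher and 5 lower in macrophages in Prog, and 2 higher and 3 lower in Int. For Prog and then Int the counts were 0 and 4, then 4 and 2 in monocytes, 1 and 3, then 2 and 1 in B cells, and 1 and 5, then 2 and 2 in T cells. In Prog 5 of 10 lower lay near the share of all genes, 45.3% in macrophages and 46.4% in T cells. Nr1h3, liver X receptor alpha, had 39.5 CPM in P-LC24 and 5.27 CPM in P-HC24 macrophages, a log2 ratio of -2.91 (-3.43 to -2.39). The P-LC24 value rests on 71 cells of another make-up. The Kupffer cell list was at 54.4 CPM in P-LC24 and 13.9 CPM in P-HC24 macrophages, and a list of dendritic cell genes at 59.3 and 22.3 CPM. The part of this make-up in the Nr1h3 ratio was not tested. Apoe, a lipid carrier that macrophages secrete, had 3502 CPM in I-LC32 and 5166 CPM in I-HC32 macrophages, a log2 ratio of 0.56 (0.53 to 0.59), opposite to the 8 genes. Apoe in T cells, which should lack it, had 6.09 and 31.2 CPM in the same libraries, which hold 115 and 757 macrophages. The exporter Abca1 had -0.61 (-0.67 to -0.54) in Prog and -0.38 (-0.44 to -0.32) in Int in B cells.

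Of 9 fatty acid synthesis genes, many of them targets of the related factor SREBP1, 2 were higher and 6 lower in macrophages in Prog, and 1 higher and 6 lower in Int. For Prog and then Int the counts were 5 and 2, then 7 and 0 in monocytes, 0 and 6, then 1 and 3 in B cells, and 2 and 3, then 4 and 1 in T cells. In monocytes only 2 of the 9 genes passed the filter in Prog and 3 in Int, of which 1 and 2 were higher. Of all genes 45.3% were lower in macrophages and 44.3% in B cells in Prog, and 37% in macrophages in Int. Elovl6, a fatty acid elongase, had 55.1, 60.7, 61.1 and 148 CPM in T cells, with I-HC32 far above the rest. The log2 ratio in Int was 1.27 (1.13 to 1.42), larger than that of any of the 8 sterol genes in the class. Scd2, a desaturase, had -0.83 (-1.40 to -0.22) in Prog and -1.25 (-1.76 to -0.71) in Int in macrophages. In monocytes in Int it had 0.67 (0.06 to 1.27). These were the signs of the summed level of the 8 genes, which not all genes of the list shared. In macrophages 6 of the 9 were below 0 and 3 above, in Prog and in Int alike. Acaca, with the most UMIs of the list in macrophages, had 0.25 (0.13 to 0.38) there in Int.

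RNA of other cells differed between the libraries beside these results. Haemoglobin genes made up 2584 to 12787 CPM of B cells and 187 to 15961 CPM of T cells, and were lowest in I-HC32 in every class. A list of 6 neutrophil genes summed to 105, 76.5, 22.2 and 3.88 CPM in B cells and 860.1, 487, 82.6 and 86.6 CPM in macrophages. The estimated share of free RNA was 3.46%, 12.9%, 9.09% and 18.4% in B cells and 0.318% to 1.44% in T cells. It was 0.684% to 7.85% in macrophages and 2.91% to 10.9% in monocytes. The estimate is the level of B or T cell genes foreign to a class over their level in all kept cells. Doublets and the mix of cells can thus enter this share. With this share subtracted, the log2 ratio of the sum in Int was -0.57 in macrophages, 0.70 in monocytes, -0.13 in B cells and 0.15 in T cells. The part of the haemoglobin and neutrophil RNA in these results was not tested.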

How the data were processed

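FNA biopsies of FPC-fed mice were pooled by condition and profiled with the 10x Chromium 3' v3.1 kit, after lysis of red cells and removal of dead cells. For each of the 4 libraries the authors deposited a matrix of raw UMI counts of genes by barcodes. Per the labels, Cell Ranger 9.0.1 and GRCm39 were used to make it. Seurat 5.3 is named for their later steps. Their ambient RNA correction and doublet removal are not part of these counts, which are whole numbers.

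Barcodes with at least 500 UMIs, at least 300 genes and at most 10% mitochondrial UMIs were kept. Lineage sums on raw UMIs were Cd79a, Cd79b and Ms4a1 for B cells, Cd3d, Cd3e and Cd3g for T cells, and Lyz2, Csf1r, Adgre1, C1qa and C1qb for myeloid cells. A cell joined the lineage that held at least 75% of these UMIs, with at least 3 UMIs (lymphocytes) or 5 (myeloid). Macrophages had at least 3 UMIs of C1qa, C1qb, Vsig4 and Timd4. Monocytes had at most 1 of these, a UMI of Csf1r, at least 2 UMIs of Ccr2, Ly6c2, Ace and Treml4, and at most 1 UMI of dendritic cell or neutrophil genes. T cells had no UMI of Ncr1. Cells of 2 lineages entered no class, which stood in for a doublet caller. Barcodes with at least 50% haemoglobin UMIs were held apart.

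UMIs were summed per class and library and given as CPM with exact Poisson intervals. Ratios carry exact conditional binomial intervals and shares carry Clopper-Pearson intervals, all at 95%. The interval procedure was tested on simulated counts drawn as independent Poisson values, which is what the intervals assume. The simulation therefore says nothing about UMIs that cluster in cells. The background took genes with at least 100 UMIs in the pair of libraries that were detected in 10% or more of cells in one of them, and counted those past 1.2-fold. Cells are not replicates and each condition had 1 library, so no test was run. Promoters came from RefSeq and positions from GENCODE. Depth per class ranged from 1034303 to 56744581 UMIs.

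All 8 members are named. Of each other list, the genes with the highest and lowest ratio among those past the filter and the one with the most UMIs could be named, and the text gives a part of these. The 5 genes most like the members were taken by Pearson's r. Members and lists were chosen with earlier results of these data known. Alternatives concern the mitochondrial limit (5% or 20%), Scrublet scores in scanpy 1.11.5 (0.8% per 1000 cells removed), doubled gate minimums, a lineage share of 90%, the weight of cells, the denominator, free RNA, cycling cells, the weight of members, subset make-up, the fold (1.5) and the filter on low counts (20 UMIs). The alternatives on Gata6, shared barcodes, the top cell and cells in neither subset were chosen after seeing the data. Work was done in Python 3.11.15 with scipy 1.17.1 for intervals, numpy 2.4.6 and pandas 2.3.3 for tables, and matplotlib 3.10.9 for plots.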

Additional observations from a re-analysis of the deposited data

Results flagged for a closer look

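The summed level of the 8 genes moved in opposite directions in some pairs of cell groups, with counting intervals that left out 0 on opposite sides. These differences were not tested, since each condition had 1 library. In Prog the log2 ratio of macrophages minus that of T cells was -0.50, and that of B-1 type minus follicular type B cells was -0.67. The interval of the macrophage sum in Prog also held the median of all genes, -0.21. In Int the difference was -1.13 for macrophages minus monocytes, -0.66 for macrophages minus T cells, 0.77 for monocytes minus B cells, -0.30 for B cells minus T cells and -0.35 for B-1 type minus follicular type B cells. The T cell sum in Int was 0.0049 and the B cell sum 0.042 with subsets weighted equally. The pairs in Int that include the whole B cell class thus did not keep opposite signs under that alternative. Macrophages and T cells kept opposite signs in Int, with the T cell sum close to no difference. Without the cells in neither subset the T cell sum was 0.017 in Prog and 0.023 in Int.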

How the results depend on the processing

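Of 108 summed ratios for Prog and Int recomputed under the alternatives, 96 stayed within the counting interval and 12 moved out of it, as did 98 and 10 of those over time. The summed ratio of macrophages kept its sign under each of the 14 alternatives, from -0.59 to -0.12 in Prog and from -0.68 to -0.36 in Int. That of monocytes in Int ranged from 0.43 to 0.70, and in Prog 7 of 12 alternatives kept the sign. For the T cell sum the range was 0.017 to 0.33 in Prog and 0.0049 to 0.21 in Int. Over time the B cell sum ranged from 0.56 to 0.89 in low-cholesterol mice and from 0.25 to 0.69 in the others, the T cell sum from 0.50 to 0.64 and from 0.27 to 0.60, the monocyte sum from 0.25 to 0.45 and from 0.74 to 1.04, and the macrophage sum from -0.0065 to 0.45 and from -0.05 to 0.10. The log2 ratio of the macrophage sum in Prog was -0.59 in cells without Gata6. For the B cell sum in Prog it was 0.28 with a mitochondrial limit of 5%, 0.094 as the mean of each cell's CPM and 0.14 without the dominant gene families in the denominator. For the B cell sum in Int it was -0.29 and -0.00208 under the former pair and 0.042 with subsets weighted equally, and the median over the 8 members was -0.25. For the T cell sum in Int it was 0.0049 with subsets weighted equally. Equal weights also leave out the cells in neither subset. With these left out and no weights, the log2 ratio was -0.11 for the B cell sum in Prog and 0.017 in Prog and 0.023 in Int for the T cell sum. The cause of these shifts was not tested.

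At 1.5-fold, 0 members were higher and 1 lower in macrophages in Prog, 1 was lower in monocytes in Prog and 0 in Int, 0 were lower in B cells in Prog and in Int, and 2 were higher in T cells in Prog and 1 in Int. At that fold 6.15% of all genes were higher and 21.5% lower in macrophages in Prog, 10.8% and 5.46% lower in monocytes, 12.8% and 1.06% lower in B cells, and 1.64% and 3.39% higher in T cells. Single genes turned sign past 0 as follows. In macrophages Hmgcs1 in Prog was 1.12 and Cyp51 in Int was 0.17 with Gata6, Fdft1 in Prog was -0.33 without Gata6 and -0.11 without cycling cells, and Sqle in Int was 0.78 without cycling cells. In B cells Fdft1 in Prog was 0.087 at a mitochondrial limit of 5%, and Sqle in Int was 0.22 with subsets weighted equally. Cyp51 in T cells in Prog was -0.062 with subsets weighted equally. Leaving out a replicate was not possible with 1 library per condition. No paired analysis was possible because each condition had 1 library of pooled mice. Depth limits most the monocytes, where Sqle rested on 5 to 16 UMIs per library, and the 71 macrophages of P-LC24.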
